A study of Mus musculus with 6 samples.

Results

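The genes of sterol and fatty acid synthesis were examined in the epidermis of newborn mice with a constitutively active aryl hydrocarbon receptor (AhR), a ligand-activated transcription factor. The set holds 34 genes, taken by name for their place in the pathway, out of 18217 genes named on the array. It covers the mevalonate and isoprenoid steps (7 genes), the steps from squalene to cholesterol (12), SREBP control and sterol transport (6), fatty acid synthesis (6) and fatty acid desaturation (3). The AhRCA group was 3 mice at postnatal day 0 that carry the constitutively active receptor under the keratin 14 promoter, which drives expression in basal keratinocytes. The WT group was 3 wild-type mice of the same age, 1 littermate for each AhRCA mouse. The strain of both groups is labelled only as a mix, and the tissue as epidermis, with no sort of cells stated. Each mouse had its own 1-colour Agilent array, so the replicates are separate animals.

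Cholesterol is built from acetyl-CoA through mevalonate, isoprenoid units and squalene, and fatty acids are built from the same precursor by acetyl-CoA carboxylase and fatty acid synthase. SREBP transcription factors, held in the endoplasmic reticulum with SCAP and INSIG when sterols are plentiful, switch most of these genes on when sterols are scarce. In the epidermis the products supply membranes, the lamellar lipids of the permeability barrier and, in the sebaceous gland, sebum.

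Values below are log2 intensities minus the 75th percentile of the same array, so that 0 is the array's 75th percentile. They can be compared between arrays for 1 probe, but not between probes. Per array, 56.2% to 61.3% of spots exceeded background clearly and 0 were saturated. The number of arrays, 3 per genotype, limits the precision. Pairs 1 and 2 lay on slide 1 and pair 3 on slide 2, each slide with its own scan. Xist and 3 Y-linked genes marked both mice of pair 3 as male and the other 4 mice as female, so slide, scan, litter 3 and sex cannot be told apart, although each is balanced between the genotypes. AhR target genes were raised in AhRCA epidermis: Cyp1a1 by 7.07 ± 0.58, Cyp1b1 by 5.34 ± 0.14 and Tiparp by 1.45 ± 0.10 (log2 difference ± SE, with adjusted p of 0.00470, 5.62e-05 and 0.00236, limma). Cyp1b1 stood at 3.51, 3.62 and 3.62 on the AhRCA arrays, against -2.01, -1.62 and -1.65 on the WT arrays.

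All 34 genes were measured, by 59 probes, and 34 of 34 were well above background on all 6 arrays. In AhRCA epidermis 2 of the 34 were lower and 0 higher, by limma with p adjusted over 12824 genes (Benjamini-Hochberg, threshold 0.05). These were Fads3, a desaturase that acts on sphingoid bases, which was 3.41-fold lower, and Acss2, the enzyme that makes acetyl-CoA from acetate, which was 1.75-fold lower. The other 32 genes, among them every gene of the mevalonate and cholesterol steps, did not pass. Of all genes tested, 2.18% passed in either direction and 1.65% were lower, so that 2 genes of 34 (5.88%) is a small count against a small background. At an unadjusted p under 0.05 there were 4 lower (Nsdhl and Fads2 besides these), against 7.57% of all genes. At that threshold 0 were higher, against 592 of the 12824 genes tested. On slide 1 alone, with 4 arrays, 0 of the 34 passed, where 130 of all genes (1.01%) did.

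The intervals of the differences were read as well. The 95% interval lay within a 2-fold change in both directions for 30 of the 34 genes, close to the share of all genes tested (85.6%). The exceptions were Fads3, Acss2, Fads2 and Mvd. These intervals take the litter pairs together, which were not alike (below). The median difference of the 34 genes was -0.17 on the log2 scale, against 0.00 over all genes, and 23 of 34 differences were negative, against 49.6% of all genes. Every AhRCA array lay below every WT array for 7 of the 34 genes, against 8.84% of all genes, and above for 0, against 7.52%. These 7 were Fads3, Acss2, Fads2, Nsdhl, Cyp51, Lss and Idi1, each on its tested probe. For Nsdhl, Cyp51 and Idi1 the groups overlapped on another probe of the gene. On the other probes of Fads3, Acss2 and Lss they did not. In whole tissue, fewer cells of a type and less RNA per cell cannot be told apart.

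**Figure D1:**
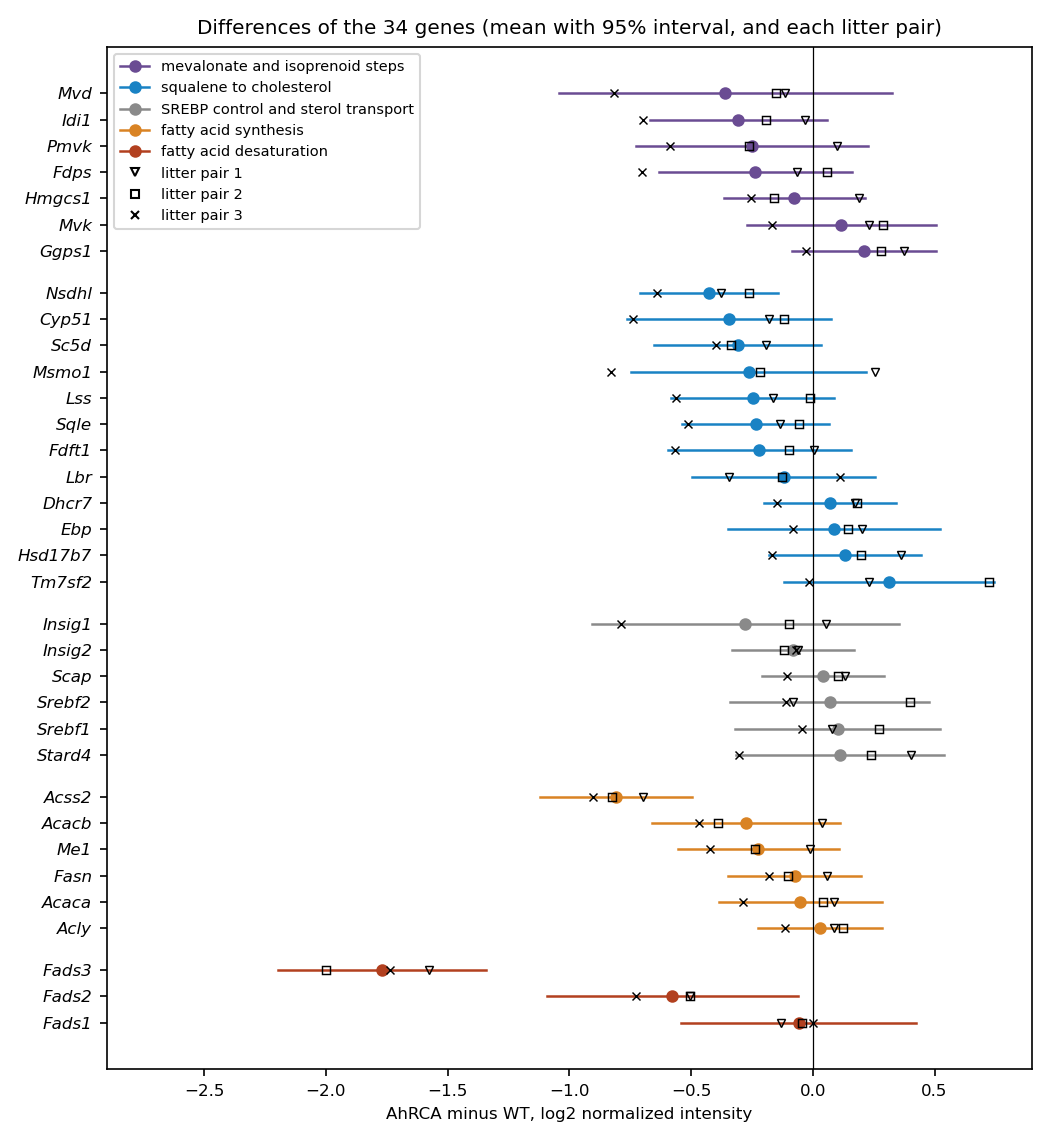
AhRCA minus WT difference in log2 normalized intensity (x axis) for each of the 34 genes (y axis), coloured by role: filled circles are means with 95% intervals from limma, and open symbols are the 3 litter pairs. Fads3, at -1.77, lies apart from the rest, with Acss2, at -0.81, and Fads2, at -0.58, next. The crosses of litter pair 3 lie below 0 for 33 of the 34 genes.

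Of the 3 fatty acid desaturase genes Fads3 alone passed, and no difference between them was tested. Fads1 and Fads2 introduce double bonds into polyunsaturated fatty acids, whereas Fads3 desaturates the long-chain base of ceramides. The 3 genes lie next to each other on chromosome 19 in the RefSeq annotation. Fads3 stood at -0.69, -0.48 and -0.47 in AhRCA 1 to 3, against 0.89, 1.52 and 1.27 in WT 1 to 3. The groups did not overlap and the lowest WT array lay well above the highest AhRCA array. The difference was -1.77 ± 0.18 (SE, n = 3 per group, adjusted p = 0.00851, limma), and it was -1.58, -2.0 and -1.74 in litter pairs 1 to 3. Its other probe differed by -1.93, with AhRCA arrays between -3.33 and -2.53 and WT arrays between -1.54 and -0.68. The call held without any 1 array (adjusted p between 0.00979 and 0.0491). On slide 1 alone the difference was -1.79, with an adjusted p of 0.0750.

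Fads2 stood at -3.76, -3.53 and -3.28 in AhRCA 1 to 3, against -3.26, -3.02 and -2.55 in WT 1 to 3. The groups lay side by side with almost no gap between AhRCA 3 and WT 1. The difference was -0.58 ± 0.22 and did not pass (adjusted p = 0.332, limma); fitted with litter pairs it had 0.0509, where 3.88% of all genes passed and Fads3 and Acss2 alone of the 34. Fads1 stood at -1.0, -0.97 and -1.42 in AhRCA 1 to 3, against -0.87, -0.92 and -1.42 in WT 1 to 3. The array of pair 3 was the lowest in both genotypes, the groups overlapped, and the difference was -0.06 ± 0.20 (adjusted p = 0.999). Of the neighbouring measured genes, on either side of the desaturases, Rab3il1 differed by 0.53 ± 0.20 (adjusted p = 0.346) and Fen1 by -0.14 ± 0.16 (adjusted p = 0.952). Neither passed.

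**Figure D2:**
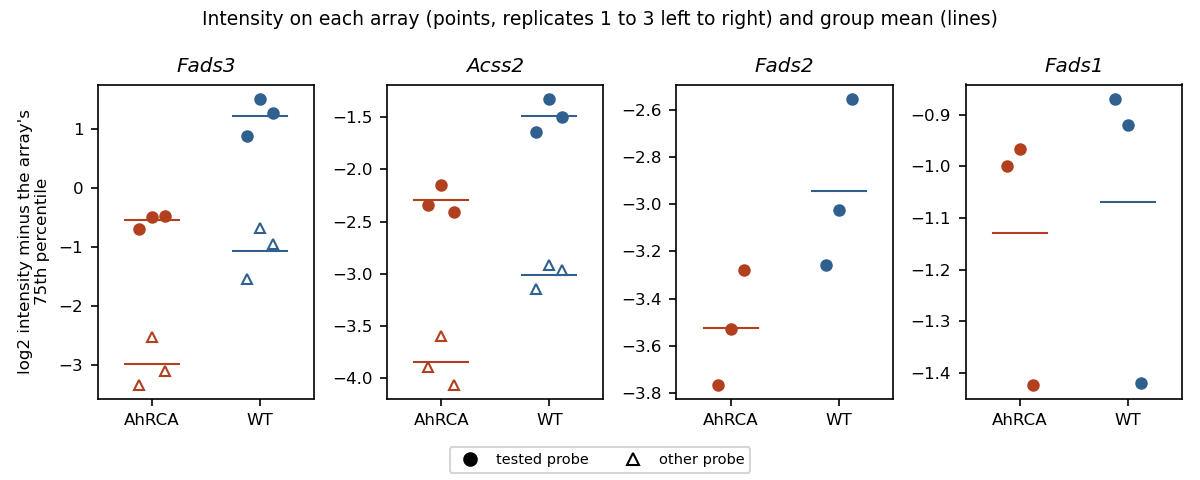
Log2 intensity minus the array's 75th percentile (y axis, a scale of its own in each panel) on each array for Fads3, Acss2, Fads2 and Fads1, AhRCA left and WT right. Filled circles are the tested probe, open triangles a gene's other probe and lines the group means; both probes of Fads3 and of Acss2 separate the genotypes, and Fads1 does not.

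Acss2 stood at -2.34, -2.15 and -2.40 in AhRCA 1 to 3, against -1.64, -1.33 and -1.50 in WT 1 to 3. Every AhRCA array lay below every WT array. The difference was -0.81 ± 0.13 (SE, n = 3 per group, adjusted p = 0.0349, limma), with -0.70, -0.83 and -0.90 in litter pairs 1 to 3, and the other probe differed by -0.84. Without any 1 array the difference stayed between -0.88 and -0.73, but the call was lost. The adjusted p was 0.135, 0.0931 and 0.0978 without AhRCA 1, 2 or 3 and 0.0580, 0.144 and 0.0756 without WT 1, 2 or 3. On slide 1 alone the adjusted p was 0.118.

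The promoters of both genes that passed are shown with those of a neighbour and of a classical sterol-regulated gene that did not, because active AhR and SREBP each bind known DNA motifs. The windows are RefSeq sequence of GRCm38.p6, from 250 bases before to 50 bases after the annotated start, read 5′ to 3′ on the gene's strand. Capitals mark matches on either strand to the AhR core GCGTG, the longer AhR response element TNGCGTG, which contains that core, the sterol response element TCACNCCAC and the CCAAT box. Fads3 lies at chr19:10041298-10041597 (+), Acss2 at chr2:155517793-155518092 (+), Fads2 at chr19:10101454-10101753 (-) and Hmgcs1 at chr13:119690101-119690400 (+).
Fads3: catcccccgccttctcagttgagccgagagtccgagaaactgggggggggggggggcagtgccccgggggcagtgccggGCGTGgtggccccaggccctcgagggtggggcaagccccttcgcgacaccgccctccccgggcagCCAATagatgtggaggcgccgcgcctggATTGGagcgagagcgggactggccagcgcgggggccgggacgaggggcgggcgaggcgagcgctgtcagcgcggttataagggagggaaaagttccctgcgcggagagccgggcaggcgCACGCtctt
Acss2: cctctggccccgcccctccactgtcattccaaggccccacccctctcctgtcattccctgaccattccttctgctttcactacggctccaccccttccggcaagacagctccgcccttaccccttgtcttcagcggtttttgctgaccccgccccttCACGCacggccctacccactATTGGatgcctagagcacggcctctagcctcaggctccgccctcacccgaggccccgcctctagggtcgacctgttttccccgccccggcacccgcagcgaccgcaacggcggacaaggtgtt
Fads2: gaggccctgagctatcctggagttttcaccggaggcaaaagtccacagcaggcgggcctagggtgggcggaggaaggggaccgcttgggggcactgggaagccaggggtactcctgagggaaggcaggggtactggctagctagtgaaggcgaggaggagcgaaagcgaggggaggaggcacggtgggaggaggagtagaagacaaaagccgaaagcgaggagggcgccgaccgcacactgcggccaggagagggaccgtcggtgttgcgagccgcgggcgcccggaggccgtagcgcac
Hmgcs1: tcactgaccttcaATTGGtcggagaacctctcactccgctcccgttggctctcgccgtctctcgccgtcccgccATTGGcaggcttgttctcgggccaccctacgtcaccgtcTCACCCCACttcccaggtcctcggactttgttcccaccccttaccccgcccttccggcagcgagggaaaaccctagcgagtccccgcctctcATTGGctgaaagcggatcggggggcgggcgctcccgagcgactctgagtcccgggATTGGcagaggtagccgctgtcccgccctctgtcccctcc
With the start site as 0, the Fads3 window holds the AhR core at -171 to -167 and, on the opposite strand, at 41 to 45. The Acss2 window holds it at -93 to -89 on the opposite strand. Neither holds the longer element or the sterol element, and the Fads2 window holds none of the 4 motifs. The Hmgcs1 window holds the sterol element at -137 to -129 and 4 CCAAT boxes.

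Of the 34 genes 29 had a window, 38 windows in all. The AhR core was in 19 of the 38, against 32.4% of 32851 windows of all genes, and so was present in genes that did not pass, such as Fasn and Idi1. The longer AhR element was in 1 of the 38, that of Insig1, against 5.07%. The sterol element was in 1 of the 38, that of Hmgcs1, against 1.24%, and the CCAAT box in 27 of the 38, against 37.4%. A match describes letters in the window and not a bound site.

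Of the 7 genes of the mevalonate and isoprenoid steps 0 passed, and their differences lay between -0.36 and 0.21. Hmgcs1, which makes HMG-CoA, stood at 5.50, 5.33 and 5.34 in AhRCA 1 to 3, against 5.31, 5.49 and 5.60 in WT 1 to 3. The groups overlapped, and the difference was -0.08 ± 0.12 (adjusted p = 0.999, limma) with a 95% interval from -0.37 to 0.21. Mvk and Pmvk, the kinases that phosphorylate mevalonate in turn, differed by 0.12 ± 0.16 and -0.25 ± 0.20. Mvd, the decarboxylase that yields isopentenyl diphosphate, stood at 2.69, 2.89 and 1.82 in AhRCA 1 to 3, against 2.81, 3.04 and 2.64 in WT 1 to 3. AhRCA 3 alone was low, which gave Mvd the widest interval of the 7, from -1.04 to 0.32.

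Idi1, the isomerase of isopentenyl diphosphate, stood at 3.55, 3.5 and 3.37 in AhRCA 1 to 3, against 3.58, 3.69 and 4.06 in WT 1 to 3. The groups did not overlap, but AhRCA 1 and WT 1 nearly met and the difference of -0.31 ± 0.15 did not pass (adjusted p = 0.550, limma). On the other probe of Idi1, which differed by -0.16, the groups overlapped. Fdps, which makes farnesyl diphosphate, differed by -0.24 ± 0.17. Ggps1, which diverts farnesyl diphosphate to the geranylgeranyl form used to modify proteins, differed by 0.21 ± 0.12, with AhRCA arrays between 0.14 and 0.44 and WT arrays between 0.06 and 0.17.

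Of the 12 genes from squalene to cholesterol 0 passed, and the 95% interval of each of the 12 lay within a 2-fold change, as for 85.6% of all genes. Nsdhl, a dehydrogenase that helps to remove the methyl groups of lanosterol, was nearest to passing. It stood at -0.19, -0.06 and -0.37 in AhRCA 1 to 3, against 0.19, 0.20 and 0.27 in WT 1 to 3. On this probe the groups did not overlap, and the difference was -0.43 ± 0.12 (adjusted p = 0.165, limma). Its other 2 probes differed by -0.49 and -0.53. On the probe with -0.53 the groups overlapped, with AhRCA arrays up to -0.546 and WT arrays down to -0.735. With the slide as a block the adjusted p was 0.0892.

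Cyp51, the lanosterol demethylase, stood at 0.97, 1.05 and 0.99 in AhRCA 1 to 3, against 1.15, 1.17 and 1.73 in WT 1 to 3. WT 3 stood out on the high side, and the difference of -0.35 ± 0.18 did not pass (adjusted p = 0.559). On another probe of Cyp51, which differed by -0.27, the groups overlapped. Lss, which closes the sterol rings, stood at 0.81, 0.94 and 0.50 in AhRCA 1 to 3, against 0.97, 0.95 and 1.06 in WT 1 to 3. The highest AhRCA array and the lowest WT array nearly met. The difference was -0.25 ± 0.14 (adjusted p = 0.650).

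The remaining genes of these steps had differences between -0.31 and 0.31. Fdft1, which makes squalene, differed by -0.22 ± 0.16, and Sqle, which oxidizes it, by -0.24 ± 0.13. Msmo1, the methyl oxidase, stood at 5.69, 5.34 and 5.0 in AhRCA 1 to 3, against 5.43, 5.56 and 5.83 in WT 1 to 3. In Msmo1 the highest AhRCA array was that of pair 1 and the lowest that of pair 3, so the groups overlapped (-0.26 ± 0.20). Sc5d, the lathosterol desaturase, differed by -0.31 ± 0.14 and Dhcr7, the last enzyme of one branch, by 0.07 ± 0.11. Tm7sf2 and Lbr are alternative sterol reductases of the same step, and Lbr is also a protein of the nuclear envelope. They differed by 0.31 ± 0.18 and -0.12 ± 0.16. Hsd17b7 and the isomerase Ebp differed by 0.13 ± 0.13 and 0.09 ± 0.18.

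Of the 6 genes of SREBP control and sterol transport 0 passed and 4 differences were positive. Srebf1, which encodes the SREBP that favours fatty acid genes, stood at 4.34, 4.60 and 4.0 in AhRCA 1 to 3, against 4.26, 4.33 and 4.05 in WT 1 to 3. Srebf2, which encodes the SREBP that favours sterol genes, stood at 1.59, 1.78 and 1.25 in AhRCA 1 to 3, against 1.67, 1.38 and 1.36 in WT 1 to 3. Both genes overlapped between the groups, with differences of 0.10 ± 0.18 and 0.07 ± 0.17 (adjusted p = 0.999 for each, limma). Scap, which escorts SREBP to the Golgi, differed by 0.04 ± 0.10, Insig2 by -0.08 ± 0.10 and the sterol carrier Stard4 by 0.11 ± 0.18. Insig1, itself induced by SREBP, stood at -0.60, -0.90 and -1.65 in AhRCA 1 to 3, against -0.66, -0.80 and -0.86 in WT 1 to 3. As in Mvd, AhRCA 3 alone was low, and the difference was -0.28 ± 0.26 (adjusted p = 0.921).

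Among the 6 genes of fatty acid synthesis Acss2 alone passed. Acly, which makes acetyl-CoA from citrate and so supplies the same precursor as Acss2, stood at 1.63, 1.58 and 1.43 in AhRCA 1 to 3, against 1.54, 1.46 and 1.55 in WT 1 to 3. The groups overlapped, and the difference was 0.03 ± 0.11 (adjusted p = 0.999, limma), with a 95% interval from -0.22 to 0.29. Fasn, the fatty acid synthase, stood at 5.84, 5.87 and 5.88 in AhRCA 1 to 3, against 5.78, 5.97 and 6.07 in WT 1 to 3. The groups overlapped and the interval ran from -0.35 to 0.20. Acaca and Acacb, the acetyl-CoA carboxylases, differed by -0.05 ± 0.14 and -0.27 ± 0.16, and Me1, the malic enzyme that supplies NADPH, by -0.22 ± 0.14. Of 19 genes with more than 1 kept probe, 5 had probes that differed in sign (Mvk, Fdft1, Hsd17b7, Insig2 and Acaca), none of which passed.

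**Figure D3:**
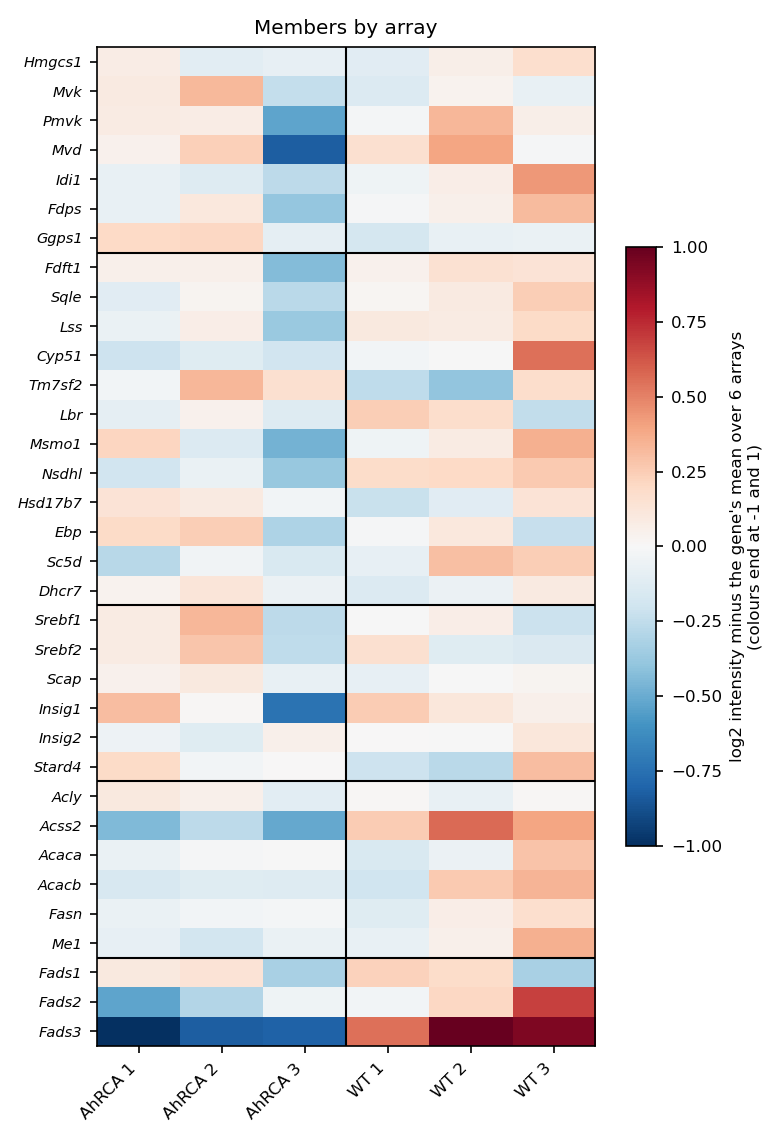
Log2 intensity minus each gene's mean over the 6 arrays (colour, which ends at -1 and 1) for the 34 genes (rows, grouped by role between black lines) on each array (columns, AhRCA left of the line and WT right). Fads3 and Acss2 are low on 3 of 3 AhRCA arrays, whereas many rows of the upper groups are low in AhRCA 3 and high in WT 3.

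The litter pairs were not alike. Within pair 3, AhRCA was lower than its WT littermate for 33 of the 34 genes, Lbr being the exception, with a median difference of -0.35. In pairs 1 and 2 it was lower for 16 and 21 of the 34, with medians of 0.02 and -0.10. Over all genes tested the shares below 0 were 47.8%, 44.5% and 56.7% in pairs 1 to 3, with medians of 0.01, 0.03 and -0.04. A difference below 0 in all 3 pairs was found for 13 of the 34 genes, against 20.1% of all genes, and above 0 in all 3 pairs for 0, against 19.7%.

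The sterol synthesis genes shared this shift. Of the 19 genes of the mevalonate and cholesterol steps 18 were lower in AhRCA within pair 3 (median -0.51), whereas on slide 1 their median was -0.05. Within pair 3 the differences were -0.83 for Msmo1, -0.82 for Mvd, -0.74 for Cyp51, -0.70 for Fdps and -0.70 for Idi1; Insig1 had -0.79. Both arrays of pair 3 contributed: AhRCA 3 lay below the mean of AhRCA 1 and 2 for 18 of the 19 sterol genes (median -0.25, against -0.09 over all genes). WT 3 lay above the mean of WT 1 and 2 for 14 of the 19 (median 0.13, against -0.06 over all genes).

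The difference between slides was tested as a genotype by slide interaction, in which slide 2 holds 1 array per genotype and the spread comes from slide 1 and the other genes. Of the 34 genes 0 passed (smallest adjusted p = 0.491, limma), 1 of all genes did (0.0078%), and 10 of the 34 had an unadjusted p under 0.05, against 9.98% of all genes. In each of the 10 the difference was lower on slide 2, which held for 5.57% of all genes, and over the whole set it was lower there for 30 of 34, against 57% of all genes. Of the 10, 8 were sterol synthesis genes and the others were Insig1 and Stard4. The interaction was added after the shift of pair 3 had been seen, so these directions repeat that observation and are no separate evidence of it.

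**Figure D4:**
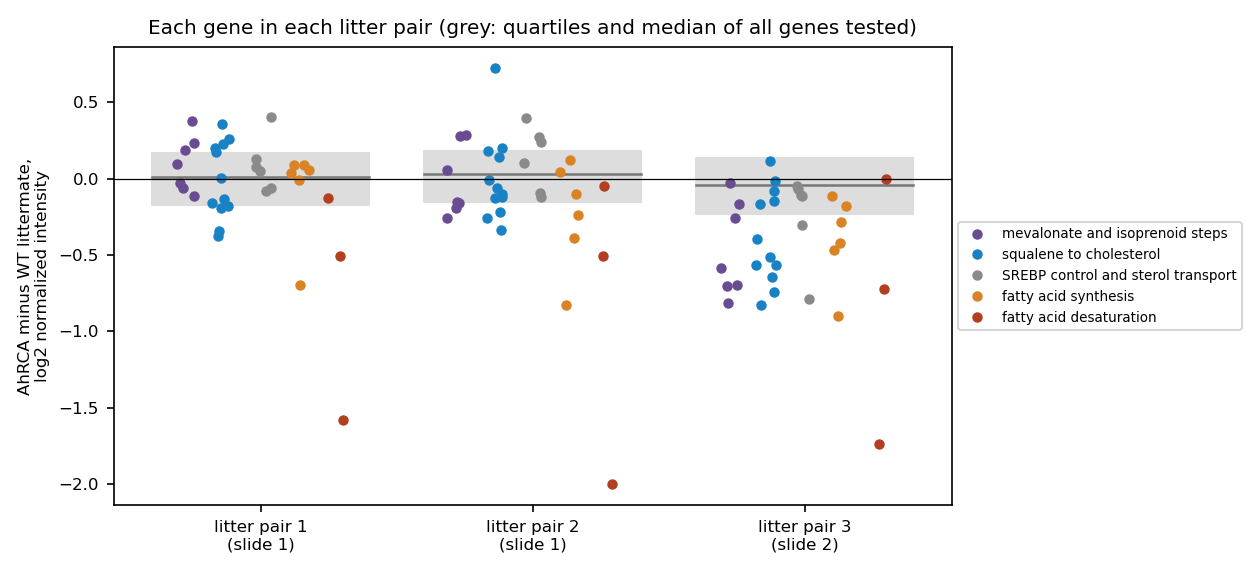
AhRCA minus WT littermate in log2 normalized intensity (y axis) for each of the 34 genes (points, coloured by role) in each litter pair (x axis). Grey bands are the quartiles and grey lines the median of all genes tested. Most points of pairs 1 and 2 scatter about 0, with Fads3, Acss2 and Fads2 the lowest in both. The points of pair 3 lie below 0, apart from Lbr.

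Other genes of the same pathways were counted beside the set. Of 39 tested genes of sterol and fatty acid metabolism 1 rose and 2 fell (limma), with a median of -0.08. Mylip, a ubiquitin ligase that targets the LDL receptor for degradation, rose by 0.95 ± 0.15 (adjusted p = 0.0332), with arrays between 1.34 and 1.60 in AhRCA and between 0.31 and 0.74 in WT. Scd1, the stearoyl-CoA desaturase, differed by -1.37 ± 0.17 (adjusted p = 0.0141), and the acyl-CoA thioesterase Acot7 by -0.72 ± 0.13 (adjusted p = 0.0465); both fell. On slide 1 alone Mylip, Scd1 and Acot7 had adjusted p of 0.0901, 0.0913 and 0.0609. With 1 array left out, Mylip (up to 0.141) and Acot7 (up to 0.184) passed only where that array was WT 3, and Scd1 lost its call without AhRCA 1 (0.0508), AhRCA 3 (0.0518) or WT 2 (0.0638). Of 17 tested targets of the sterol sensor LXR and genes of sterol export or esterification, 0 rose and 1 fell. It was Soat1, which esterifies cholesterol and also stands in the sebaceous list, at -1.81, -1.75 and -1.90 in AhRCA 1 to 3, against 0.58, 0.76 and 0.20 in WT 1 to 3 (adjusted p = 0.00196).

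Markers of cell types in the samples were read beside these genes. Of 11 tested sebaceous gland markers, with Fasn left out as one of the 34, 7 fell and 0 rose (Awat2, Cidea, Pparg, Soat1, Scd1, Plin2 and Elovl3, between -3.57 and -1.14). Scd1 was also counted among the pathway genes above. On slide 1 alone Awat2 (adjusted p = 0.072, limma), Plin2 (0.0516) and Scd1 (0.0913) lost the call, and Cidea, Pparg, Soat1 and Elovl3 kept it. The mean log2 value of the 11 was -1.04 to -0.90 on AhRCA arrays and 0.26 to 0.71 on WT arrays. Their summed linear level, in units of the array's 75th percentile, was 76.4 to 86.4 on AhRCA arrays and 127 to 156 on WT arrays. That sum is mostly Krt79 (86.6% to 87.4% on AhRCA arrays and 78% to 80% on WT arrays), which did not pass (-0.63, adjusted p = 0.0602, limma). Since values cannot be compared between probes, such a sum, here and for the lists below, is weighted to its brightest probes. The shares are of probe intensity and not of transcripts. The melanocortin receptor gene Mc5r of sebocytes exceeded background clearly on 0 arrays. Of 14 hair follicle markers 1 fell (Lgr5, by 0.83 on the log2 scale, with an adjusted p of 0.072 on slide 1 alone, limma). The hair follicle keratin genes Krt71 (-1.24), Krt27 (-1.25), Krt25 (-1.12) and Krt35 (-0.86) did not pass. Each of these was nonetheless lower on every AhRCA array than on any WT array. Of the 14 differences 4 were positive (Lef1 0.18, Shh 0.16, Foxn1 0.12 and Lhx2 0.06), and the median was -0.16. The mean log2 value of the 14 was 1.87 to 2.15 on AhRCA arrays and 2.23 to 2.71 on WT arrays. Their summed level was 325 to 402 on AhRCA arrays and 455 to 636 on WT arrays, of which Krt17, at -0.09, made up 51.6% to 66.4% on AhRCA arrays and 37.2% to 53% on WT arrays. The part of these and the following cell types in the Fads3 and Acss2 results was not tested.

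Of 5 tested adipocyte markers 0 passed, with summed levels of 5.50 to 6.42 on AhRCA arrays and 5.28 to 8.51 on WT arrays; Lpl differed by -0.82 and passed when litter pairs were fitted (adjusted p = 0.0225, limma), and Fabp4 differed by -0.91. Adipoq, Plin1, Cfd and Cidec were well above background on 2 arrays each, Adig on 1 and Lep on 0. Of 7 basal keratinocyte markers Krt15 alone passed (-0.72, with an adjusted p of 0.0534 when litter pairs were fitted and 0.123 on slide 1 alone, limma). The differences of 5 of the 7 were positive. Col17a1 (0.51, adjusted p = 0.0623, limma), Itgb4 (0.32) and Trp63 (0.18) did not pass. Each was higher on every AhRCA array than on any WT array. Of 7 suprabasal markers 0 passed, with Ivl at -0.08 and Lor at 0.05, and the mean log2 values of both keratinocyte lists overlapped between the genotypes. Of 7 Langerhans cell markers Cd207 alone passed; no AhRCA array had it clearly over background, and it was lower by at least 3.09-fold (adjusted p = 0.0206). Cd74 (-1.15), H2-Aa (-1.55) and H2-Ab1 (-1.64) did not pass but were lower on every AhRCA array than on any WT array, and Ptprc, at 0.40, was higher on every AhRCA array. The summed level of the 7 was 7.29 to 10.4 on AhRCA arrays and 11 to 16.6 on WT arrays. Epcam made up 49.3% to 67% of that sum on AhRCA arrays and 33% to 49.3% on WT arrays. It differed by -0.21 and was lower on every AhRCA array than on any WT array. Itgax differed by 0.007, and neither gene passed. Of the 7 fibroblast, 5 melanocyte, 3 muscle and 3 erythroid markers tested 0 passed. The largest differences were -1.19 for Col1a2 and -0.90 for Col6a1, -0.46 for Mitf and 0.33 for Tyrp1, -1.23 for Myh8 and -0.08 for Acta1, and -1.43 for Slc4a1 and -0.55 for Alas2. Myh8 (0.0444) and Slc4a1 (0.0461) passed when litter pairs were fitted, and Col1a2 (0.0464) with the slide as a block. Fibroblast markers did not share a direction: 4 of the 7 differences were positive, with a median of 0.31. Postn, at 0.47, was higher on every AhRCA array than on any WT array. Of 6 endothelial markers 0 exceeded background clearly, on any of the arrays.

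**Figure D5:**
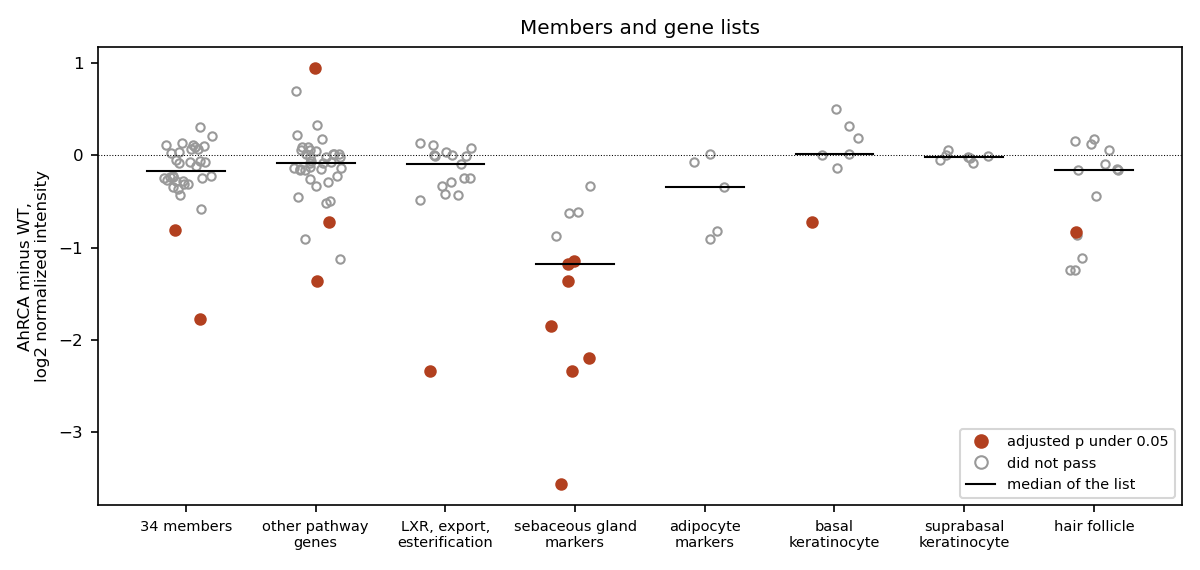
AhRCA minus WT difference in log2 normalized intensity (y axis) for the 34 genes and for other gene lists (x axis); filled points passed at an adjusted p under 0.05, open points did not, and bars are the median of each list. The 34 genes have a median of -0.17 with 2 filled points, and the 11 sebaceous gland markers a median of -1.17 with 7.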

How the data were processed

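Epidermal RNA was isolated (RNeasy Micro) and Cy3-labelled (Quick Amp), per the labels' protocols. Spot intensities were read by Agilent Feature Extraction 10.7.3.1, per the file headers, with the local background subtracted and no scaling between arrays. The authors also deposited log2 values. From array to array these differed as the log2 intensities did, apart from a constant (slope 1), so scale and direction are the same, and every probe has a median of 0 across arrays. Their column medians were 0.0282, 0.0633 and -0.0704 for AhRCA 1 to 3 and -0.0703, -0.0494 and 0.0825 for WT 1 to 3. They served as an alternative.

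From the scanner files, log2 intensity minus each array's 75th percentile was computed. Control spots (1639 of 45018) and between 56 and 94 outlier spots per array were left out and replicate spots averaged. The files hold no gene symbols, so RefSeq accessions were matched to symbols of GRCm38.p6 (26690 of 41174 probes). Kept were probes flagged well above background on 3 or more of 6 arrays, and the one with the highest mean stood for its gene, which left 12824 genes, 3 with a missing value and none of those among the 34. The genotypes were compared with limma 3.58.1 in R 4.3.3 (2 groups, 6 arrays, two-sided, Benjamini-Hochberg, threshold 0.05), after a test on simulated data.

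Numbers pair littermates per the series' design. Within slide 1, deviations from the group means correlated at 0.337 and 0.372 for same-numbered arrays over 12821 genes. The differently numbered arrays of slide 1 had 0.15 and 0.194. Pair 3 had 0.55, and its arrays had between -0.416 and -0.356 with those of the other genotype on slide 1. Since pair 3 alone was male and on slide 2, its values cannot tell litter from slide or sex. The pairing of the series' design was kept. Named were all 34 genes, 3 AhR targets and up to 8 genes of each list that passed, or the 2 with the largest differences. The lists were sterol and fatty acid pathway genes outside the set, LXR and sterol export genes, and markers of the cell types given. The genes and lists were chosen with earlier results of these data known. Lep and the other genes named for a detail were chosen after their values were seen. Alternatives were quantile and median scaling, normexp background correction (on median spot signals, since the files hold no mean signal), 2 other filters, the mean of a gene's probes, the litter pair or the slide as a block, slide 1 alone, each array left out, and the authors' values. A genotype by slide interaction was added after the data were seen.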

Additional observations from a re-analysis of the deposited data

How the results depend on the processing

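Of 544 values of the 34 genes under 16 alternatives, 532 kept the call of the main comparison, 12 lost it, and 0 were gained or reversed while called. Most of the 532 belong to the 32 genes that passed neither in the main comparison nor in any alternative. They therefore say little about the 2 that passed. Of the 34 genes 22 kept their sign under each alternative run. The 12 that did not had passed under none. Fads3 lost its call on slide 1 alone, and Acss2 kept it in 5 of 16 alternatives, with differences between -0.88 and -0.55. The number of the 34 genes that passed, 2 in the main comparison, was 1 under quantile normalization, median scaling, normexp background correction or no filter on dim probes, 0 on slide 1 alone and 1 without any 1 array (lowest 1, highest 1). It was 2 with the litter pair (replicate block) or the slide as a block. Of all genes, 279 passed in the main comparison, 132 with no filter on dim probes, 497 with the litter pair as a replicate block, 539 with the slide as a block, 130 on slide 1 alone, and between 62 (without WT 2) and 195 (without WT 1) when 1 array was left out. The litter pair as a block changed no call among the 34 genes. Among the marker genes refitted under the alternatives it changed those of Lpl, Krt15, Myh8 and Slc4a1. Krt79, Col17a1, Itgb4, Trp63, Postn, Epcam, Itgax, Cd74, H2-Aa, H2-Ab1, Ptprc and the hair follicle markers other than Lgr5 were not refitted. The slide as a block added the call of Col1a2. With 3 arrays per genotype, differences of the size seen in Nsdhl or Fads2 did not pass.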
